A study of Caenorhabditis elegans with 2 samples.

Results

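The microRNA genes of Caenorhabditis elegans, apart from 5 that act in the heterochronic timing pathway, were examined for binding of NHR-23. They were taken as the genes of biotype miRNA on the nuclear chromosomes in Ensembl release 115 (assembly WBcel235, the same as ce11), without lin-4, let-7, mir-48, mir-84 and mir-241. This left 256 microRNA genes of 46890 annotated genes. Binding was measured by chromatin immunoprecipitation and sequencing (ChIP-seq) directed at eGFP-tagged NHR-23 in L3 larvae of mixed sex. The animals were of strain OP43, which carries the unc-119(ed3) III mutation and the transgene wgIs43, described in the labels as an insertion that targets nhr-23. The 2 biological replicates form 1 group, so no condition was compared, and a control named in the labels was not used here. The material was the whole animal, so binding cannot be assigned to a tissue.

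A microRNA is cut from a hairpin in a longer primary transcript and, bound to an Argonaute protein, represses messenger RNAs that pair with it, mainly through its seed. MicroRNAs with the same seed form a family, and several C. elegans families act redundantly. NHR-23, a ROR-type nuclear receptor needed for larval molting, has relatives in mammals that recognise the half-site RGGTCA. The annotated start of a microRNA gene is the 5′ end of its hairpin, so the primary transcript can begin further upstream.

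A gene was called bound when the summit of a thresholded peak lay no more than 1500 bp before or 500 bp after its annotated start. By this rule 64 of the 256 microRNA genes were bound. The families below are shown because more of their members were bound than of any other shared seed, with the mature product that carries the family seed, 5′ to 3′. Capitals mark the seed, bases 2 to 8. Sequences are from RefSeq for WBcel235.

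The mir-35 family, which is required redundantly for embryonic development, was bound in 8 of 8 members, which share the seed.
mir-35: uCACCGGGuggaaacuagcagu
mir-36: uCACCGGGugaaaauucgcaug
mir-37: uCACCGGGugaacacuugcagu
mir-38: uCACCGGGagaaaaacuggagu
mir-39: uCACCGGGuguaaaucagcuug
mir-40: uCACCGGGuguacaucagcuaa
mir-41: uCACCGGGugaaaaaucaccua
mir-42: uCACCGGGuuaacaucuacaga

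The mir-51 family, related to the miR-100 microRNAs of other animals and needed for embryonic development, was bound in 5 of 6 members.
mir-52: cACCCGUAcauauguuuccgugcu
mir-53: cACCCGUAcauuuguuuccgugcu
mir-54: uACCCGUAaucuucauaauccgag
mir-55: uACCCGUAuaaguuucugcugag
mir-56: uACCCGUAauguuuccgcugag

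Of the 5 microRNA genes with the seed of the mir-64 family, 4 were bound. These 4 lie together in 1 cluster, and 3 of them are shown. The other gene with this seed, mir-63, was not bound.
mir-229: aAUGACACugguuaucuuuuccaucg
mir-64: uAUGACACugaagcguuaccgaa
mir-66: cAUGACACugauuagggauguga

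The remaining pairs and single microRNAs are shown because the results return to them. mir-58a and mir-80 belong to the mir-58 family, related to bantam of flies, but their seeds are not the same. The products of mir-44 and mir-45 printed here are identical, mir-46 and mir-47 share a seed, and mir-237 is a relative of lin-4.
mir-58a: uGAGAUCGuucaguacggcaau
mir-80: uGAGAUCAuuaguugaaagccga
mir-44: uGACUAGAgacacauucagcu
mir-45: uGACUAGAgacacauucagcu
mir-46: aAGAGAGCcgucuauugacagu
mir-47: aAGAGAGCagucuauugacagu
mir-237: uCCCUGAGaauucucgaacagcu
mir-238: uUUGUACUccgaugccauucaga
mir-228: aAUGGCACugcaugaauucacgg

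The sequences under 6 summits, each 101 bases centred on the summit and read on the strand of the microRNA gene, are given next. The first 4 are the strongest summits whose nearest annotated start is that of the bound microRNA itself. The last 2 were added after their values were seen, mir-42 for its half-site and mir-228 for its repeat. Capitals mark GGGTCA, which is 1 of the 2 spellings of RGGTCA, and GAGAGA or its reverse complement TCTCTC. The ce11 windows are chrIII:6972045-6972145 (minus strand) for mir-5549, chrIV:11027762-11027862 (minus) for mir-53, chrX:1389538-1389638 (plus) for mir-2221, chrII:13335259-13335359 (minus) for mir-2215, chrII:11889562-11889662 (plus) for mir-42 and chrIV:5561577-5561677 (plus) for mir-228.
mir-5549: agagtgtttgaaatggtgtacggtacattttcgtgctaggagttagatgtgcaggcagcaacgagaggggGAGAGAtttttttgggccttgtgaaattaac
mir-53: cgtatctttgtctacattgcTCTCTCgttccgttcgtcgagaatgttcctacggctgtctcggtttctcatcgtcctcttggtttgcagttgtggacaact
mir-2221: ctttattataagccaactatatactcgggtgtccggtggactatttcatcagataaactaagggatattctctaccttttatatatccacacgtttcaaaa
mir-2215: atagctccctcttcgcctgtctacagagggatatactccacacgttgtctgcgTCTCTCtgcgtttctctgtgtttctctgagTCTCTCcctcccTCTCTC
mir-42: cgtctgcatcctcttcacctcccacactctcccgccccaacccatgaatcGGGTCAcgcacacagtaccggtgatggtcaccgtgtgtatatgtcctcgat
mir-228: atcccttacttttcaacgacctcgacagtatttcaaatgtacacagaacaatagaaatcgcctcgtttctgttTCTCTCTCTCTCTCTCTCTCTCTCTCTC

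The first question was how many microRNA genes carried NHR-23 near their start. The 64 bound genes are 25% of the 256 (exact Clopper-Pearson 95% interval 19.8 to 30.8%). In the same window, 18.3% of the 19973 protein-coding genes and 12.8% of all annotated genes other than these microRNA genes held a summit. Protein-coding genes were placed by the 5′ end of the gene; with a window at any of their transcript starts the share was 19.4%. Clustered microRNA genes share summits and are not independent, so they were also counted as loci, joining genes on 1 strand whose starts lie within 1 kb. Of 222 such loci, 51 were bound, or 22.97% (17.6 to 29.1%). The 18.3% of protein-coding genes is below the interval for genes and inside the interval for loci. Protein-coding genes that share a summit were not joined, so the locus share and the 18.3% are unlike measures. MicroRNA genes on opposite strands were not joined either: mir-8186-1 and mir-8186-2 share a summit but are separate loci. The counts therefore do not separate microRNA loci from protein-coding genes. All intervals cover counting error alone and take the genes or loci as independent. They do not cover error in the peak calls or variation between replicates, and the peak lists carry no read depth.

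Binding was then split by genomic position. Hairpins that overlap no protein-coding gene on either strand (intergenic) numbered 149, and 33 of them were bound, or 22.1% (15.8 to 29.7%). Hairpins inside an intron numbered 96, and 30 were bound, or 31.25% (22.2 to 41.5%). Those intervals overlap. Counted as loci, 19 of 83 intronic (22.9%) and 31 of 129 intergenic (24.0%) were bound, so the gap between the gene counts was gone once clusters counted once. Among intronic hairpins, 17 of 66 with the host gene on the same strand (25.8%, 15.8 to 38.0%) and 13 of 30 with the host on the opposite strand (43.3%, 25.5 to 62.6%) were bound. Of those 13, 7 are the mir-35 cluster, inside Y62F5A.9, and 3 are the mir-54 cluster, inside F09A5.3. Of the remaining 11 hairpins, which overlap an exon, 1 was bound: mir-354, in the ribosomal protein gene rps-20.

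**Figure D1:**
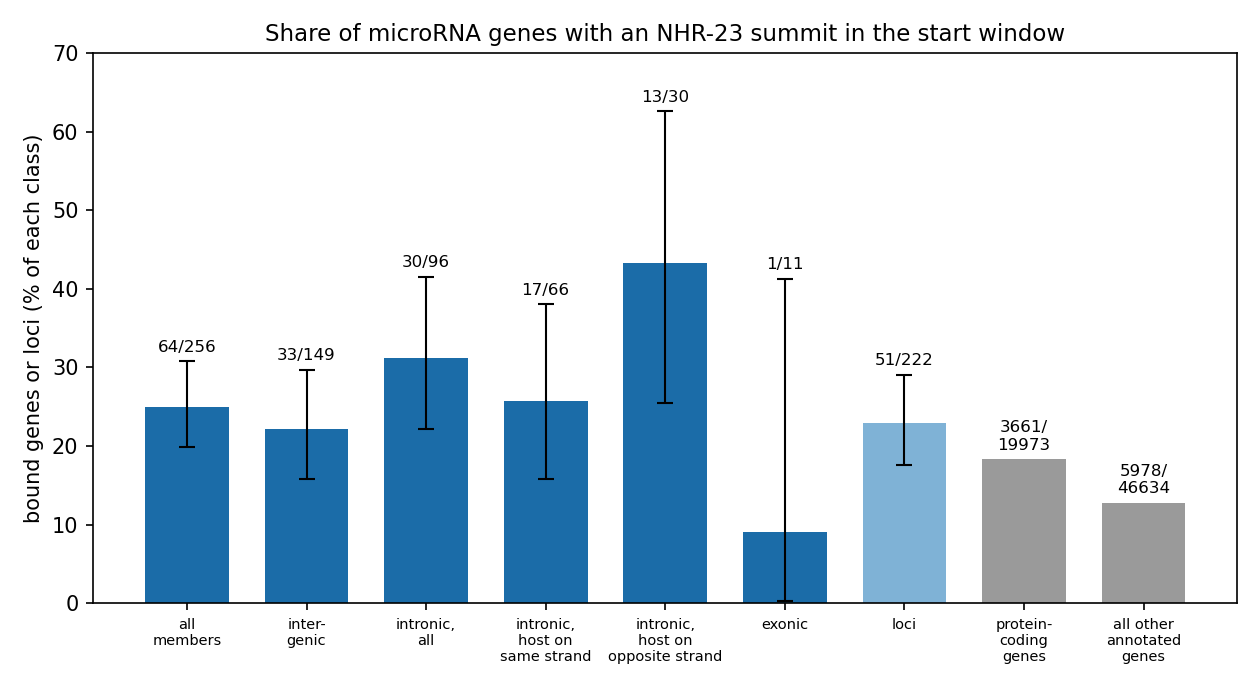
Share of microRNA genes with an NHR-23 summit from 1500 bp upstream to 500 bp downstream of the annotated start, by genomic position, with loci, protein-coding genes and all other annotated genes to the right. The vertical axis is percent of each class, bars of microRNA genes carry exact 95% intervals, and the fractions above are bound over all. The 51 of 222 loci have an interval that reaches below the 18.3% of protein-coding genes, which were not joined into loci.

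Most strongest summits lay upstream, as does most of the window, which reaches 1500 bp upstream and 500 bp downstream. No share of upstream summits was counted for protein-coding genes. The strongest summit was upstream of the start in 59 of the 64 bound genes, and in 30 of 64 it was within 500 bp upstream. For intergenic genes that was 20 of 33, with a median distance of 286 bp, and for intronic genes 10 of 30, with a median of 666 bp. These are counts of genes: the 33 intergenic genes used 30 distinct strongest summits and the 30 intronic genes 19. Later hairpins of a cluster lie further from a shared summit, as with 406 bp at mir-35 and 1106 bp at mir-41. The distances were not counted by locus, so they do not separate the classes. The 64 genes used 50 distinct strongest summits, since 19 genes shared theirs with another microRNA gene. Several summits fell in the windows of 5 genes: mir-52 had 3, and mir-54, mir-58a, mir-238 and mir-2214 had 2 each. The plot of position against rank shows this spread.

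**Figure D2:**
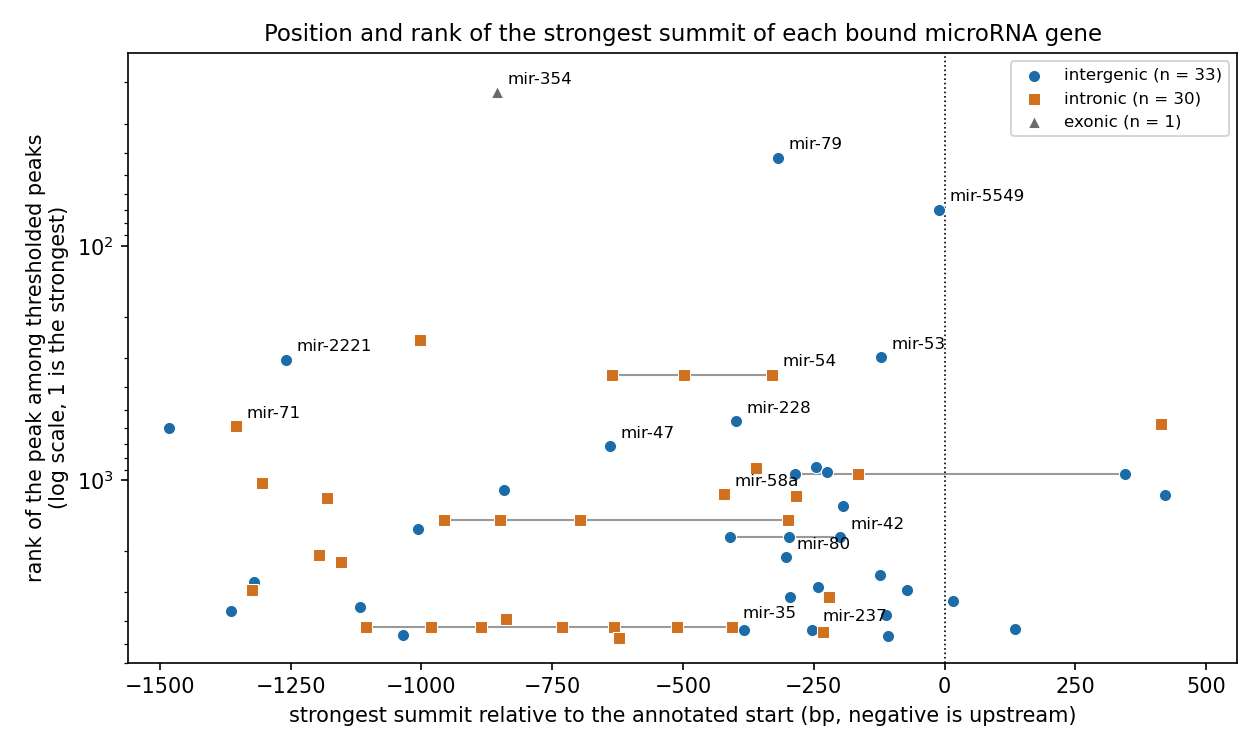
Distance of the strongest summit from the annotated microRNA start (horizontal axis, bp, negative is upstream) against the rank of its peak among the 4944 thresholded peaks (vertical axis, log scale, strongest at the top) for 33 intergenic, 30 intronic and 1 exonic bound genes. Grey lines join genes with the same summit. The ranks run from 22 at mir-354 to 4714 at mir-243, and 59 points lie left of the dotted start.

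The strength of the peaks covered the whole list. Strength is the signal value that the authors' peak caller gave each peak, used only to rank peaks within a list; over the 4944 thresholded peaks it ran from 34.2 to 967.1 with a median of 60.4. The 64 bound microRNA genes had a median rank of 1682.5, against 2040 for bound protein-coding genes. Genes that share a summit repeat it in both medians, and the difference was not tested. The 50 distinct summits had a median rank of 1544, with no such value for protein-coding genes. Among the 500 strongest peaks were those of 9 genes, of which the 3 of the mir-54 cluster share 1 summit. The last 500 peaks held those of 4 genes, and neither count was set against protein-coding genes. Intronic genes had a median rank of 1471 and intergenic genes 1748; by distinct summits these were 1186 over 19 summits and 1941 over 30.

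Of the strongest peaks, those of mir-354, mir-5549 and mir-353 also lay near protein-coding genes, several of which act in translation. mir-354 had a signal of 391.3 (rank 22), with 171.3 in replicate 1 and 218.7 in replicate 2, but the summit was 856 bp upstream of its hairpin and 153 bp from the start of ekl-4. The windows of rps-20 and Y105E8A.14 held it as well. The summit of mir-5549 was 10 bp from its start, with a signal of 275.5 (rank 70), 139.6 in replicate 1 and 139.5 in replicate 2. It also lay in the windows of eef-1A.1, a translation elongation factor, and rfc-4, a subunit of the replication clamp loader. mir-353, intronic in the ribosomal protein gene rpl-24.1, had its summit 1003 bp upstream at rank 253, in the windows of rpl-24.1, of the ribosomal protein gene rps-10, of tmem-39 and of D1007.10. At these 3, binding at the microRNA and binding at the protein-coding neighbours cannot be told apart.

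Other strong summits had no protein-coding window around them. mir-79, of the miR-9 family and known to act in the epidermis on glycosylation that guides neuronal migration, had a summit 319 bp upstream with a signal of 324.2 (rank 42), 118.7 in replicate 1 and 210.2 in replicate 2. The start nearest to that summit, 22 bp away, is that of the noncoding RNA C12C8.8. The summit of mir-53 was 121 bp upstream at 170.5 (rank 298), with 66.0 in replicate 1 and 106.8 in replicate 2. mir-2221 had one 1259 bp upstream at 169.1 (rank 306), with 109.1 in replicate 1 and 62.8 in replicate 2. In replicate 1 mir-2221 thus exceeded mir-53, and in replicate 2 mir-53 exceeded mir-2221. mir-71, which extends lifespan, lies in an intron of ppfr-1, and its summit was 1354 bp upstream at 130.2 (rank 588).

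The 4 bound clusters are drawn with their summits. Upstream of the 7 hairpins of the mir-35 cluster lay 1 summit, 406 bp from mir-35 and 1106 bp from mir-41, with a signal of 39.7 (rank 4213), 18.2 in replicate 1 and 19.4 in replicate 2. It is near the end of the thresholded list. The eighth family member, mir-42, is in a separate cluster with mir-43 and mir-44, whose summit was 199 bp upstream of mir-42 at 75.2 (rank 1748), with 33.9 in replicate 1 and 41.2 in replicate 2. The 8 bound members of the mir-35 family therefore rest on 2 summits, and the weaker of them carries 7. The mir-229 cluster, within an intron of gcn-1 on the same strand, had 1 summit 300 bp upstream of mir-229 at 82.8 (rank 1471), with 39.6 in replicate 1 and 44.1 in replicate 2. Ahead of the mir-54 cluster, the nearer of 2 summits was 329 bp upstream at 159.5 (rank 354), with 83.6 in replicate 1 and 78.8 in replicate 2, and the other was 1354 bp upstream at 60.3 (rank 2476). In each bound cluster every member was bound, and the other 14 of the 18 loci with several members had none. Starts within 1 kb have overlapping windows, so 1 summit can call a whole cluster, and this pattern is partly set by the rule.

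**Figure D3:**
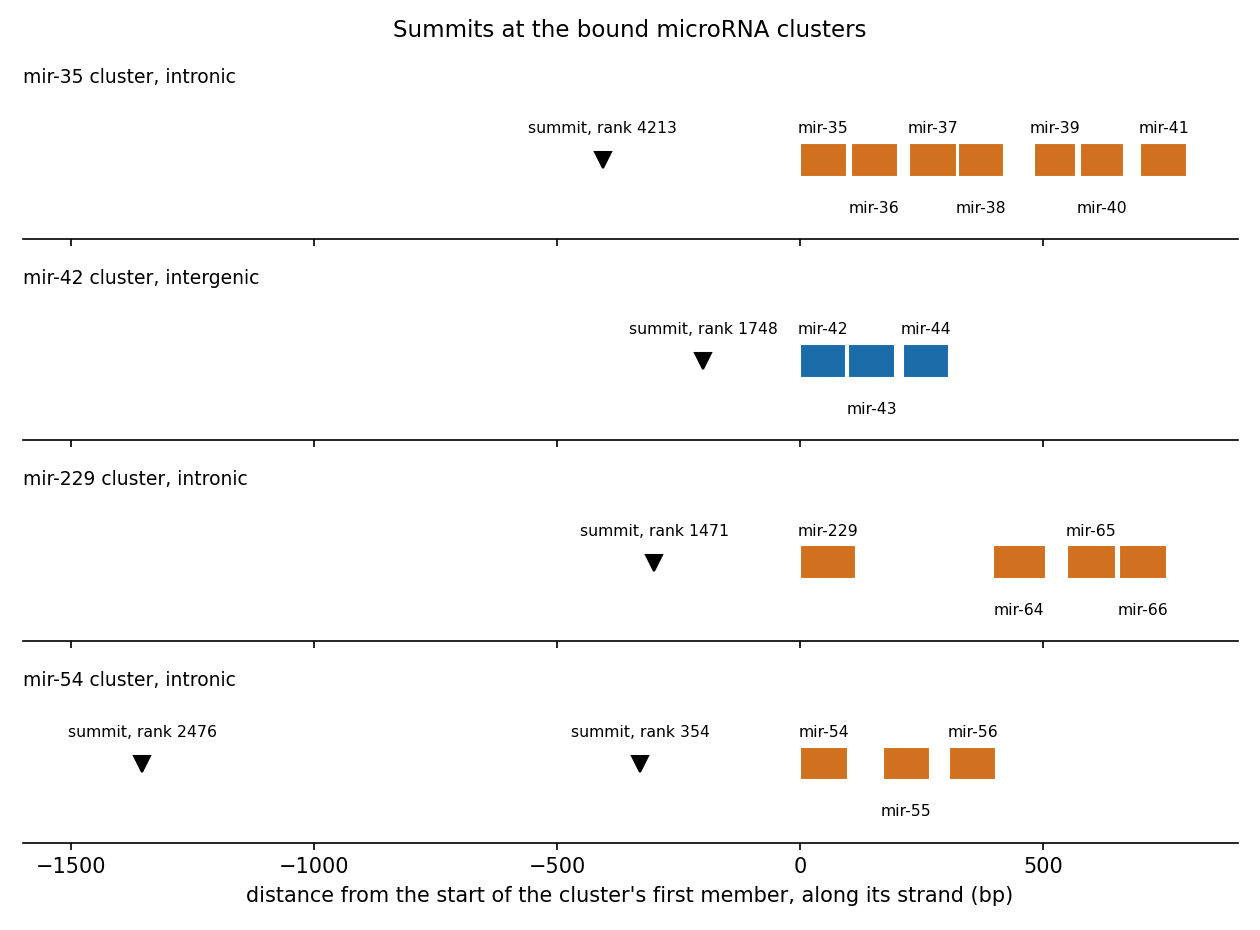
The 4 bound microRNA clusters, with hairpins as boxes (orange intronic, blue intergenic) and thresholded summits as triangles, on a horizontal axis of distance in bp from the start of the first hairpin along its strand. Each cluster has its summit upstream of the first hairpin, from 199 bp at mir-42 to 406 bp at mir-35, and the mir-54 cluster has another at 1354 bp.

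Of the 5 families listed, not all of which share 1 seed, the mir-51 family had the strongest median rank, 354 over its bound members. The strongest peaks of its 5 bound members were at 3 summits: that of mir-53, that of the mir-54 cluster and that of mir-52. At mir-52 the strongest of 3 summits was 195 bp upstream with a signal of 89.0 (rank 1292), 30.5 in replicate 1 and 65.6 in replicate 2. mir-51, the sixth member, was not bound; the summit of mir-53 lay 1700 bp upstream of its start, beyond the window. A pooled peak at mir-51, 15 bp from its start, had a signal of 31.3, below the 34.2 of the last thresholded peak.

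In the mir-58 family, abundant microRNAs needed redundantly for normal body size, mir-80 and mir-58a were bound. The summit of mir-80 was 303 bp upstream at 66.4 (rank 2134), with 35.6 in replicate 1 and 27.6 in replicate 2. At mir-58a, in an intron of Y67D8A.2, the summit was 422 bp upstream at 94.8 (rank 1145), with 39.0 in replicate 2 and no peak of replicate 1 over the summit. mir-58b, mir-58c, mir-81, mir-82 and mir-2209a, which carry the seed of mir-80, were not bound. Summits lay 1638 bp downstream of the start of mir-81 and 1831 bp downstream of that of mir-82.

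Among smaller groups, mir-44 and mir-45 were the bound members of the mir-44 family, and mir-61 and mir-247 were unbound. The summit of mir-45 was 17 bp from its start, on the downstream side, at 49.1 (rank 3290). mir-46 and mir-47 were both bound, at 56.5 (rank 2725, 1320 bp upstream) and 119.1 (rank 713, 640 bp upstream). Of 5 lin-4 and let-7 relatives outside the excluded set, only mir-237 was bound, 253 bp upstream at 38.6 (rank 4335). Its replicates differed, with 8.90 in replicate 1 (rank 12044 in that list) and 30.4 in replicate 2 (rank 3062). The unbound relatives were mir-793, mir-794, mir-795 and mir-1821.

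Counting the products of both arms of each hairpin, 44 seeds were carried by more than 1 microRNA gene, and 21 of these had a bound gene. For 6 of the 44 every gene with the seed was bound, the 8 with CACCGGG among them. These 6 seeds belong to 4 sets of genes, since mir-46 and mir-47 share a seed on each arm, as do the overlapping hairpins mir-8186-1 and mir-8186-2. Of the 5 genes with AUGACAC, 4 were bound, and mir-63 was not. GAGAUCA, the seed of mir-80, was carried by 6 genes, of which mir-80 alone was bound. The 4 genes with AUGACAC and 7 of the 8 with CACCGGG each share 1 summit, so these counts are not of separate sites.

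Further lists were drawn up from general knowledge, 1 of conserved microRNAs and 1 of microRNAs with a described phenotype or tissue role, and neither is complete. Both leave out the mir-35, mir-51 and mir-58 families described above. Of the 26 on the first list, 7 were bound: mir-79, mir-228, mir-71, mir-47, mir-46, mir-87 and mir-90. Of the 27 on the second, 6 were bound: mir-79, mir-228, mir-71, mir-238, mir-244 and mir-237. Both counts are near the 25% of all 256 microRNA genes. mir-228, whose promoter is active in glia, had its strongest summit 398 bp upstream at 132.4 (rank 561). mir-238, needed for normal lifespan, had 2 summits, 1007 bp upstream at 79.0 (rank 1617) and 218 bp upstream at 42.3 (rank 3926). The unbound ones included lsy-6, which sets left-right asymmetry of taste neurons, the muscle microRNA mir-1, the neuronal mir-124, and mir-34 and mir-83. At mir-1 a pooled peak 452 bp upstream had a signal of 26.0 and at mir-34 one 1301 bp upstream had 27.2, both under the threshold.

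Whether a summit belongs to the microRNA or to a neighbour was described by the nearest annotated start. For 25 of the 64 bound microRNA genes (39.1%, 27.1 to 52.1%), a summit in the window was nearest to the gene's own start. Among the bound protein-coding genes the share was 60.8%. A protein-coding gene was entered here by every annotated transcript start, a microRNA gene by its hairpin start alone. These shares are therefore unlike measures and do not compare the classes. For microRNA genes the share was 20 of 33 for intergenic genes (60.6%, 42.1 to 77.1%) and 5 of 30 for intronic genes (16.7%, 5.64 to 34.7%). Clustered genes share summits here too. By locus, an own start was nearest in 20 of 31 bound intergenic loci (64.5%, 45.4 to 80.8%). For bound intronic loci it was 5 of 19 (26.3%, 9.15 to 51.2%). These intervals overlap, which does not show that the shares are alike, and the difference was not tested. Counting a start of the same cluster as own, the total was 30 of 64 genes. The strongest summit was nearest to a protein-coding start in 13 genes, to a noncoding RNA in 18, to another microRNA in 7 and to a piRNA in 2. In 8 of those 18, the 7 genes of the mir-35 cluster and mir-58a, the noncoding RNA lies on the same strand and overlaps a hairpin of the cluster or gene itself. With these and the cluster starts counted as own, the total was 38 of 64 (59.4%, 46.4 to 71.5%).

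Of the bound genes, 44 of 64 (68.75%, 55.9 to 79.8%) had a summit outside the windows at the 5′ ends of protein-coding genes, with 23 of 33 intergenic and 21 of 30 intronic. With windows at every protein-coding transcript start the count was 41 (64.1%, 51.1 to 75.7%), with 23 intergenic and 18 intronic. The 3 genes that drop out, mir-4929, mir-5595 and mir-8190, lie near internal starts of their hosts E01G4.3, nurf-1 and hmr-1. When each summit was given only to its nearest start, 30 microRNA genes (11.7%) received a summit, against 13.9% of protein-coding genes. Here too protein-coding genes were entered by every transcript start, so these shares do not compare the classes.

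Hosts and neighbours of single intronic genes were varied. mir-1824 had its summit 413 bp downstream at rank 577, 78 bp from the start of its host Y87G2A.18. mir-253 and mir-4920 likewise had summits 22 and 134 bp from the starts of their hosts F44E7.5 and sph-1. mir-8190, in an intron of the E-cadherin gene hmr-1, had one 1196 bp upstream at rank 2083, to which its own start was the nearest. mir-5595, on the opposite strand from its host nurf-1, which encodes a chromatin remodelling subunit, had one 165 bp upstream at rank 937. Among intergenic genes, mir-269 had its summit 98 bp from the start of sma-10, a gene of body size signalling, and mir-4932 had one 38 bp from smn-1.

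Replicate support was high for position and lower for rank. The strongest summit lay inside a peak of replicate 1 in 60 of 64 bound genes and inside a peak of replicate 2 in 64 of 64. The 4 without a peak of replicate 1 there were mir-228, mir-58a, mir-8206 and mir-243. These full lists hold 30000 and 27191 peaks and so are a weak criterion. With the 4944 strongest peaks of replicate 1 alone, 64 microRNA genes were bound (25%), against 17.2% of protein-coding genes; with those of replicate 2, 59 were bound (23.05%), against 18.2%. Of the 64 genes bound in the thresholded list, 45 (70.3%, 57.6 to 81.1%) were bound in each of these lists and 0 in neither. The 8 missed with replicate 1 were mir-2215, mir-244, mir-8206, mir-8188, mir-8196a, mir-237, mir-90 and mir-392. The 11 missed with replicate 2 were the 7 genes of the mir-35 cluster, mir-87, mir-790, mir-2213 and mir-4932. The authors derived the thresholded list from these replicates, so the replicate lists are no independent test of it. The plot of both replicates shows where they differ.

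**Figure D4:**
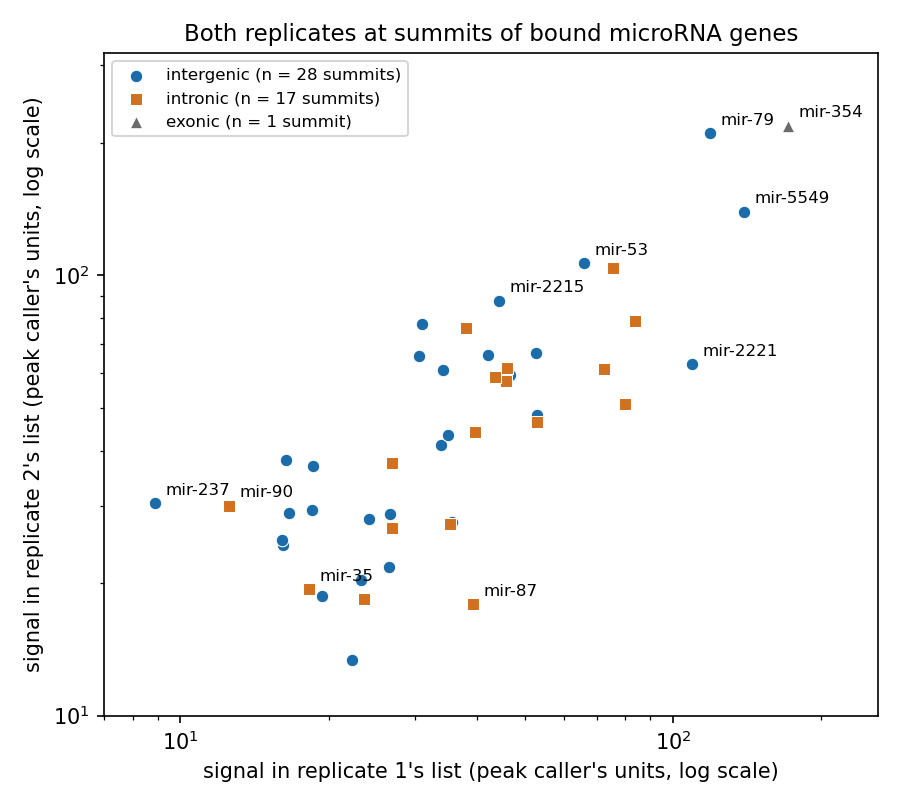
Signal in replicate 2's list against signal in replicate 1's list (both log scale, in the peak caller's units, which are not comparable between lists) for the 46 distinct strongest summits of bound microRNA genes that lie inside a peak of each replicate. The strongest summits, at mir-354, mir-79 and mir-5549, are high in both, and mir-237 and mir-90 are lower in replicate 1, at 8.90 and 12.5, than in replicate 2, at 30.4 and 29.98, relative to their neighbours.

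The sequence under the summits was searched for RGGTCA, that is AGGTCA or GGGTCA, and for GAGAGA, on both strands within 50 bp. Neither motif contains the other. RGGTCA was found at 4 of 64 bound microRNA genes (6.25%, 1.73 to 15.2%), against 11% of the 4944 thresholded summits. The 4 genes are mir-79 and the mir-42 cluster, so 2 of 50 distinct summits held it. At mir-42 the match is the GGGTCA printed in capitals above. GAGAGA was found at 23 of 64 (35.9%, 24.3 to 48.9%) and at 19 of 50 distinct summits (38%), against 26.5% of all thresholded summits. mir-228 had 12 overlapping matches in 1 repeat, and mir-2211, mir-87 and mir-253 had 4 each. Within 100 bp, 8 of 64 genes held RGGTCA, against 946 of the 4944 thresholded summits (19.1%). GAGAGA was within 100 bp at 36 of 64 genes, against 1958 of the 4944 (39.6%). In these counts the genes of a cluster repeat 1 summit, and distinct summits were not counted at 100 bp. These matches are a description of the letters near the summits.

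The bound share differed between chromosomes for microRNA genes and for protein-coding genes, and these differences were not tested. On chromosome III 12 of 27 microRNA genes were bound (44.4%, 25.5 to 64.7%), against 26.1% of protein-coding genes. The 4 genes of the mir-229 cluster are among these 12. On chromosome II it was 18 of 48 (37.5%, 24.0 to 52.6%, against 17.9%), with the mir-35 and mir-42 clusters giving 10 of the 18. On chromosome I it was 10 of 33 (30.3%, against 24.1%), on IV 10 of 50 (20%, against 16.4%), and on X 12 of 72 (16.7%, against 17.5%). On chromosome V it was 2 of 26, mir-87 and mir-253 (7.69%, 0.946 to 25.1%, against 12.9%).

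The count depended on the window and on the part of the list used. With 500 bp upstream in place of 1500 bp, 37 microRNA genes were bound (14.5%), against 12.9% of protein-coding genes. With 3000 bp it was 79 (30.9%), against 23.6%. With only the stronger part of the list, 2472 peaks, 38 were bound (14.8%), against 10.8%. With only the 3332 peaks among the strongest of both replicates, it was 43 (16.8%), against 13.6%. In each of these settings the share of microRNA genes was the higher. The settings draw on the same peaks, and clustered genes repeat a summit in each, so they are not separate evidence. The differences were not tested. When summits went to their nearest start the share of microRNA genes was the lower. The classes were not entered alike there, because protein-coding genes had every transcript start, so that setting does not compare them.

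Of the 192 unbound microRNA genes, 31 had a thresholded summit within 3000 bp of the start: 13 upstream and 18 downstream. These were 16 intergenic, 12 intronic and 3 exonic genes. The nearest was at mir-4938, 604 bp downstream, followed by mir-5550 at 783 bp downstream. Just past the upstream edge lay the summits of mir-59 (1537 bp) and mir-72 (1629 bp), and just inside it that of mir-2215 (1482 bp). Over the unbound genes the distance to the nearest summit had a median of 9848.5 bp and reached 230057 bp. A pooled peak below the threshold lay in the window of 65 of the 192 (33.9%). The strongest of those was at mir-235, with a signal of 34.1 against 34.2 at the last thresholded peak, and the weakest bound gene, mir-243, had 35.8. The pooled list held 25056 peaks below the threshold. Neither the 65 of 192 nor the 31 of 192 was set against a share of other unbound genes. Neither can be read as particular to microRNA genes.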

How the data were processed

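NHR-23 ChIP-seq peaks of 2 biological replicates from 1 group were used. Per the deposited text files, the authors called peaks for each replicate against a control and on pooled alignments, then derived the thresholded list by an irreproducible discovery rate procedure. The deposited lists give each peak a signal value, on the caller's own scale, and a summit offset in bp. Not given in the sources used here: aligner, peak caller, threshold, versions and read depth.

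Summits on ce11 were set against Ensembl release 115 gene starts (WBcel235), each gene by its 5′ end. Nearest starts included every transcript start of other genes. The 5 excluded genes were found by WormBase ID, under which Ensembl lists let-7 by another name; mature products were read from RefSeq by the same IDs, matched for 256 of 256 genes, with a mature product for 255. The mature sequence of 1 bound gene of the mir-64 family is not reported here. Shares carry exact Clopper-Pearson 95% intervals. No test was run. Code was tested on simulated data. Python 3.11.15, numpy 2.4.6, scipy 1.17.1 and matplotlib 3.10.9 were used.

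The members and lists were chosen with earlier results of these data known. Named genes were up to 30 bound genes by rank, unbound genes with a summit within 3000 bp, members of the lists, nearest starts and hosts; others named were chosen after their values were seen. Alternatives were the window, the part of the list, each replicate, both replicates, gene names, peak overlap, nearest start, host strand, locus distance and motif distance.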

Additional observations from a re-analysis of the deposited data

How the results depend on the processing

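The count of bound microRNA genes, 64, was 37 with 500 bp upstream, 38 with the stronger part of the list and 30 with each summit given to its nearest start. Bound intergenic genes, 33, were 19 with the stronger part. Bound intronic genes, 30, were 12 with 500 bp upstream, 18 with the stronger part, 19 with peaks among the strongest of both replicates, 6 by nearest start, and 17 when a host on the opposite strand was not counted. Bound loci, 51, were 31 with the stronger part. The median rank, 1682.5, was 1775 with 3000 bp upstream, 943 with the stronger part and 1154 with peaks strong in both replicates. Leaving out a replicate gave 59 to 64 genes, 32 to 34 intergenic, 23 to 31 intronic, 51 loci both times, and median ranks of 1755 to 1848. RGGTCA was near 8 and GAGAGA near 36 genes within 100 bp. Of 48 alternative values, 31 stayed within 1.5 times of the count or within the spread of the median rank between replicates. That spread, 65.76, is the standard deviation of the 2 single-replicate medians, and both of them lay outside it. The setting by gene names kept 255 of 256 genes and dropped no bound gene, so it could not move a value. Windows at every protein-coding transcript start, chosen after seeing the data, left 41 genes, against 44, with a summit outside them. Peak overlap gave 67 genes, and loci joined within 10 kb gave 48 of 205. The shorter window and the stronger part of the list use fewer positions or peaks by construction, and for the other settings the cause was not tested. No paired analysis was possible because the 2 replicates form 1 group. Depth is unknown, 2 replicates limit precision, and a peak near a hairpin start does not assign it to the microRNA.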
